A study of Homo sapiens with 4 samples.

Results

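Chromatin accessibility was examined at the genes that encode the proteins of the cytosolic ribosome, in a lymphoma cell line with and without silencing of the transcription factor IRF4. The genes were chosen by symbol: protein-coding genes named RPL or RPS followed by digits (with an optional A, L or X; the RPS6K kinases were left out), plus RPLP0, RPLP1, RPLP2 and RPSA, with chromosome Y left out. This gave 81 of 20037 protein-coding genes in the hg38 gene table, 46 of the large subunit, 32 of the small subunit (RPSA included) and 3 of the stalk. An interval, meaning a stretch of open chromatin in which the authors counted reads, was given to a gene when its midpoint lay in the gene body or within 1 kb of either gene end. By that rule 78 of the 81 genes held 114 of the 73135 intervals in the count files. RPL3L, RPL10L and RPL36 held none, so their accessibility was not analysed here. The promoter sequences of RPL10L and RPL36 are nonetheless among those described below.

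The data came from ATAC-seq, in which a transposase inserts sequencing adapters where nucleosomes leave the DNA bare. The cells were TMD8, an established human cell line of activated B cell-like (ABC) diffuse large B cell lymphoma, a type of lymphoma whose cells depend on IRF4. The control group comprised 2 libraries of cells with a scrambled short hairpin RNA (shRNA), and the shIRF4 group comprised 2 libraries of cells with an shRNA against IRF4. The titles of the second group read shIRF4 whereas its library names read siIRF4, and the titles were followed. Both groups are the same line with no other agent or allele named, a time of harvest was not given in the sources used here, and 1 line is no sample of lymphomas. Nothing in the labels says that the 2 libraries of a group came from separate cultures, so a p-value measures only the spread between these libraries, which may be technical.

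Ribosomal proteins of the small subunit line the channel for the messenger RNA, and those of the large subunit surround the centre that joins amino acids. The stalk proteins RPLP0, RPLP1 and RPLP2 recruit translation factors. The genes are transcribed strongly in nearly all growing cells from promoters that mostly lack a TATA box, and their transcripts usually begin with a cytidine inside a run of pyrimidines, the terminal oligopyrimidine (TOP) tract, through which growth signals set their translation.

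Promoter sequence was found in a RefSeq table (GRCh38.p14) for 64 of the 81 genes. The lines that follow show, for 8 of them, the 100 bases before and the 20 bases from the outermost listed start, 5′ to 3′ on the strand of the gene, with the pyrimidine run that holds that start in capitals. RPS19, RPL7A and RPL9 are shown because the interval at their start rose in shIRF4, RPL31 and RPL28 because intervals in their bodies fell while the interval at their start did not pass the test, RPL18 because its start was the most open per length, RPLP1 as a stalk gene and RPS27L as a paralog.
RPS19, chr19:41860155-41860274, plus strand: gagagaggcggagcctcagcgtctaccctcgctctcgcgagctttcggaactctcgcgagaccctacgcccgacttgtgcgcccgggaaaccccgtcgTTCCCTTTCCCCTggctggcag
RPL7A, chr9:133348118-133348237, plus strand: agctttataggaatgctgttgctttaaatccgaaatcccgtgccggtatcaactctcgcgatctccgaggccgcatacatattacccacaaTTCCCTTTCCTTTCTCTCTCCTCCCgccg
RPL9, chr4:39458903-39459022, minus strand: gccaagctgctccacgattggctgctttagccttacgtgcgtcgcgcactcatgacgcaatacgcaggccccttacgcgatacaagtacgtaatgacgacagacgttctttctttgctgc
RPL31, chr2:101002189-101002308, plus strand: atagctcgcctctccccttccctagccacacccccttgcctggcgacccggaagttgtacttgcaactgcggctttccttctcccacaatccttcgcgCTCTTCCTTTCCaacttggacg
RPL28, chr19:55385832-55385951, plus strand: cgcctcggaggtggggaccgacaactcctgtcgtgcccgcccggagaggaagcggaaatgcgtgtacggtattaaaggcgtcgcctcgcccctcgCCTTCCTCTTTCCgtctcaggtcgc
RPL18, chr19:48619159-48619278, minus strand: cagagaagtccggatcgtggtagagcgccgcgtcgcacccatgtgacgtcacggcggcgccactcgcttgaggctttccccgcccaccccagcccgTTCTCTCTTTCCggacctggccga
RPLP1, chr15:69452718-69452837, plus strand: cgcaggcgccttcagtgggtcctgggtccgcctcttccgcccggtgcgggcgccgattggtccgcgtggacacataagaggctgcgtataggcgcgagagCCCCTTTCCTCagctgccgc
RPS27L, chr15:63157458-63157577, minus strand: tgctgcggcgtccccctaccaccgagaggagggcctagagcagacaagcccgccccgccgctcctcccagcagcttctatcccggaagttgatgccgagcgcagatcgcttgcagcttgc

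The pyrimidine run was 25 bases long in RPL7A, the longest among the 64 genes, 13 in RPS19 and RPL28, 12 in RPL31 and RPL18, and 11 in RPLP1. The run can begin before the listed start, so its length is not that of the TOP tract in the transcript. RPL9 and RPS27L have an A and a G at the listed start and so no run there. Of the 64 promoters, 44 (68.8%) had a cytidine at the listed start inside a run of at least 5 pyrimidines, against 7.48% of the 15842 protein-coding promoters in the table. The median run was 10 bases in the ribosomal protein promoters and 0 in all promoters. A cytidine start inside a pyrimidine run, as a TOP tract has, is thus a feature that most of the 64 genes share. The choice by symbol did not use it.

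Short motifs were looked for on both strands of the 300 bases from 250 before to 50 after the listed start. The ETS motif CCGGAAG, of the family that includes PU.1 and GABP, stood in 22 of the 64 ribosomal protein promoters (34.4%) and in 14.2% of all 15842. The YY1 motif AAGATGGC stood in 6 (9.38%, against 3.86%), those of RPL13A, RPL21, RPL24, RPL35A, RPS28 and RPS3. The SP motif GGGCGG stood in 36 (56.2%, against 58.3%), and TATAAA in 6 (9.38%, against 9.75%). These letters are matches and do not show binding.

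The IRF motif, GAAA repeated after any 2 bases, stood in 4 ribosomal protein promoters (6.25%, against 3.18% of all), those of RPL29, RPS12, RPS16 and RPS9. The composite of an ETS and an IRF half-site, GGAA followed after any 2 bases by GAAA, stood in 3 (4.69%, against 2.51%), those of RPL11, RPL29 and RPS27A, and these letters can overlap the IRF motif. The AP-1 motif TGANTCA stood in 2 (3.12%, against 5.70%), the E-box CACGTG in 3 (4.69%, against 8.82%) and the NRF1 motif in 1 (1.56%, against 1.77%). The start intervals of 3 genes with the IRF motif had a median log2 fold change of 0.01 in shIRF4 against control, and those of the genes without it 0.08. The start intervals of the 3 genes with the composite had a median of 0.22, and those of the genes without it 0.06. The 3 values were 0.23 for RPL11, 0.22 for RPS27A and 0.01 for RPL29, which is in both motif sets. No difference between genes with and without a motif was tested. None of the 5 genes that held the IRF motif or a composite with a start interval in the data, RPL29, RPS12, RPS16, RPL11 and RPS27A, had a start interval past the test.

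The 4 libraries held 12152153 and 13609123 counts in the control group and 17954924 and 9112860 in the shIRF4 group, with TMM scaling factors from 0.981 to 1.03. A chi-square test of counts between the libraries of a group gave, over all intervals, a statistic of 1.04 times its degrees of freedom in control and 2.01 times in shIRF4. Both exceeded sampling noise, by little in control. An excess that small cannot show that the 2 control files come from separate cultures. Each file was nonetheless counted as a library of its own. At the ribosomal protein gene-end intervals it gave 0.96 and 1.00 times, and the libraries of neither group differed there beyond that noise. Among marker genes, 6 of 7 B cell genes held gene-end intervals, with a median of 52.8 CPM, against 3 of 7 T cell genes (4.02 CPM), 2 of 5 myeloid genes (6.66 CPM) and 2 of 6 epithelial and fibroblast genes (6.67 CPM). Accessibility does not measure RNA, so the interval at the IRF4 start (52.3 and 55.8 CPM in control, 54.0 and 50.3 CPM in shIRF4) does not check the silencing.

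Most ribosomal protein genes held a single open interval. In total 53 genes held 1 interval and 25 held 2 or more, with RPS19 holding the most, 6, and RPL28 5. Of the 114 intervals, 89 lay within 1 kb of a gene end (in 75 genes) and 25 in a gene body (in 16 genes). Of the 89 gene-end intervals, 59 were at the listed start (58 genes; RPS3 held 2), 13 at the other end of the gene (the far end), 1 at the upstream boundary of RPL6, whose listed start lies inside the gene, and 16 at genes whose start was not in the table. Neither RPS9 nor RPS15 counts among the genes with a gene-end interval: the broad intervals of 14065 bp and 4374 bp that cover their starts have their midpoints in the gene body. The interval also lay at or in another protein-coding gene for 34 of the 114 intervals, such as LIAS beside RPL9 and MED22 beside RPL7A, and reads there cannot be told apart by gene.

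The gene-end intervals were open at levels from 2.49 to 363 CPM (counts relative to the library total after TMM scaling, mean of 4 libraries), with a median of 27.3 CPM. Per length, which allows genes to be compared, the median was 21.2 CPM per kb, beside 18.3 for the gene-end intervals of all protein-coding genes and 12.7 for all intervals. The start of RPL18, a large subunit protein, was the most open at 71.1 CPM per kb. The far ends of RPL27A (49.2) and RPL41 (41.2) and the start of RPS19 (39.5) were also among the most open. The least open was a 438-bp interval near the RPS3 start, at 5.69 CPM per kb.

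The highest totals in CPM came from long intervals. The RPL28 start interval spanned 11225 bp, with 370.1 and 376 CPM in the control libraries and 344 and 361 CPM in the shIRF4 libraries. The RPL13A far-end interval spanned 12595 bp, which takes in the RPL13A start as well, with 331 and 339.9 CPM in control and 333 and 355 CPM in shIRF4. The RPL18 start interval had 127 and 133 CPM in control and 130.5 and 138 CPM in shIRF4. None of the 3 passed the test, with log2 fold changes of -0.08, 0.03 and 0.04, and the groups of the last 2 overlapped. The RPL7 interval, with 73.0 and 75.1 CPM in control and 73.8 and 76.4 CPM in shIRF4, had a log2 fold change of 0.02.

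At the low end, the second RPS3 start interval had 1.93 and 2.16 CPM in control and 2.39 and 3.49 CPM in shIRF4, with the widest standard error of the gene-end intervals (log2 fold change 0.43 ± 0.26 SE, adjusted p = 0.256). The far ends of RPS6 and RPL7A and the second RPL23A interval had log2 fold changes of -0.05, 0.15 and -0.05, and their groups overlapped. RPS6 is the small subunit protein phosphorylated by S6 kinase, and at this far end its libraries held 5.29 and 4.69 CPM in control and 4.29 and 5.78 CPM in shIRF4.

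The question the series poses is which chromatin changes accompany IRF4 silencing. Over all 73028 intervals tested with the edgeR quasi-likelihood test, 22.8% were called at a Benjamini-Hochberg adjusted p under 0.05, 7.26% higher and 15.5% lower in shIRF4. All 114 ribosomal protein intervals passed the filter on low counts, and 15 of them (13.2%) were called, 7 higher (6.14%) and 8 lower (7.02%). At the gene ends 8 of 89 (8.99%) were called, 6 higher (6.74%) and 2 lower (2.25%), where 10.2% of the gene-end intervals of all protein-coding genes were called, 4.87% higher and 5.35% lower. At the listed starts 3 of 59 (5.08%) were higher and 0 lower, where 7.63% of all 8529 start intervals were called. The share of called intervals at ribosomal protein gene ends was near that background and is no result about these genes. For the 0 lower starts, edgeR counted 0 and DESeq2 0 at an unadjusted p under 0.05, and DESeq2 called 0 starts in either direction.

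The values at the gene ends were tightly grouped. The log2 fold changes ran from -0.43 to 0.43 with a median of 0.06 (quartiles 0.02 and 0.15), beside a median of 0.03 for the gene-end intervals of all genes and 0.01 for all intervals. Of the 89, 70 (78.7%) were above 0, against 60% of all gene-end intervals. The 95% interval of the change lay within 1.25-fold in either direction for 63 of the 89 and within 1.5-fold for 86. For most of these intervals a change larger than that was thus outside the interval of the fit. The median standard error was 0.085 here and 0.093 over the gene-end intervals of all genes, so this precision is not particular to the ribosomal protein genes. These counts describe 4 libraries that all the intervals share. In bulk libraries a site open in more cells and a site more open in each cell cannot be told apart.

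**Figure D1:**
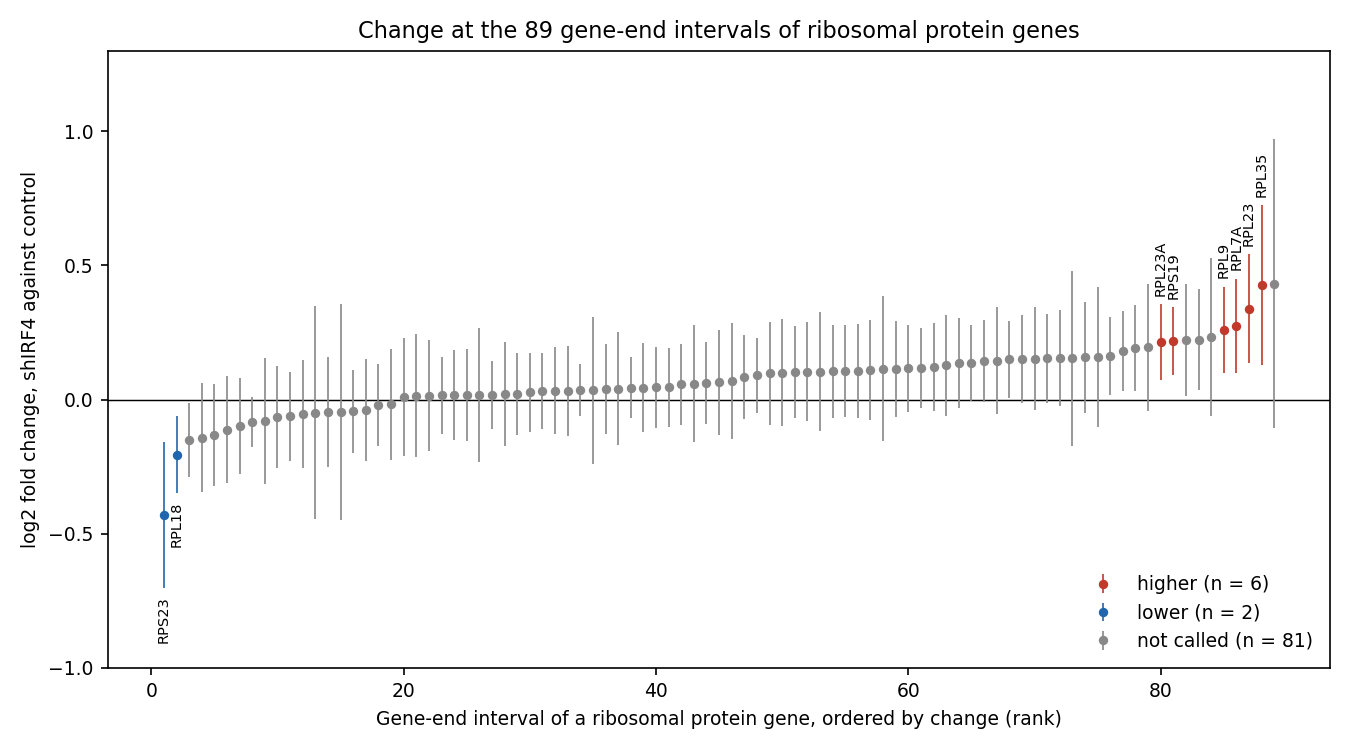
Log2 fold change (vertical axis, shIRF4 against control, with its 95% interval) at each of the 89 gene-end intervals of ribosomal protein genes, ordered by size along the horizontal axis. The 2 called lower (blue) are the lowest points of a narrow spread from -0.43 to 0.43. The 6 called higher (red) lie toward its upper end, mixed with uncalled points (grey). The last grey point is the second RPS3 start interval.

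Summed over the 89 gene-end intervals, the libraries held 3281 and 3312 CPM in control and 3371 and 3453 CPM in shIRF4 (3297 ± 21.8 and 3412 ± 57.9, mean ± SD, n = 2 each). Both shIRF4 libraries lay above both control libraries, by a ratio of means of 1.03. As a share of all counts the same intervals held 0.322% and 0.327% in control and 0.346% and 0.347% in shIRF4. The median log2 ratio to the control mean was 0.06 and 0.07 in the 2 shIRF4 libraries, beside 0.03 in both for the gene-end intervals of all genes. With 2 libraries against 2 an exact permutation test cannot give a p below 0.333, so none is given for these sums. The 25 body intervals summed to 706.7 and 672.5 CPM in control and 630.4 and 665.5 CPM in shIRF4. As a share of all counts they held 0.0693% and 0.0664% in control and 0.0647% and 0.0669% in shIRF4, and on that scale the groups overlapped.

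**Figure D2:**
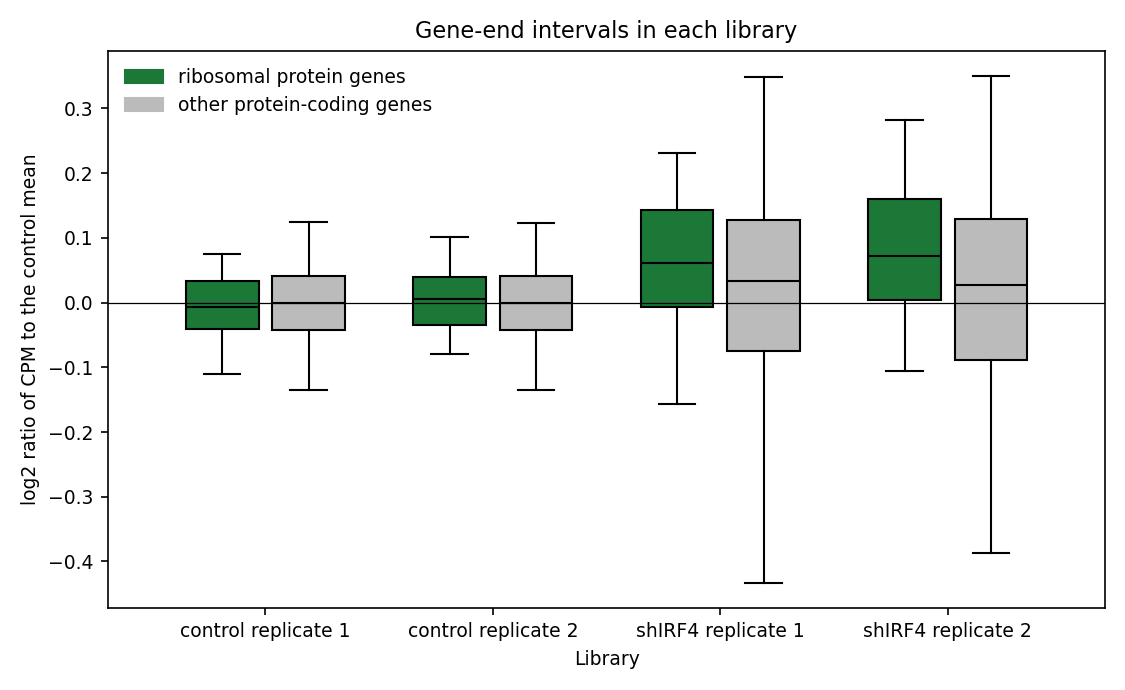
Log2 ratio of CPM to the mean of the control libraries (vertical axis) in each of the 4 libraries, for the 89 ribosomal protein gene-end intervals (green) and all other gene-end intervals (grey). Lines are medians, boxes quartiles and whiskers the 5th to 95th percentile; the medians of the ribosomal protein genes in shIRF4 are 0.06 and 0.07.

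Among the gene-end intervals of the large subunit, 5 of 53 rose and 1 fell, with a median log2 fold change of 0.06. RPL9, which shares its start interval with LIAS, had 32.5 and 36.3 CPM in control and 40.8 and 41.9 CPM in shIRF4 (chr4:39458230-39459988; log2 fold change 0.26 ± 0.08 SE, adjusted p = 0.018). RPL7A, which shares its start interval with MED22, had 23.9 and 25.4 CPM in control and 29.4 and 30.5 CPM in shIRF4 (chr9:133347401-133348908; 0.28 ± 0.08, adjusted p = 0.021). In both, each shIRF4 library stood above each control library. RPL23, on the face where the subunits join, had 17.3 and 17.0 CPM in control and 20.7 and 23.02 CPM in shIRF4 (chr17:38853159-38854387; 0.34 ± 0.10, adjusted p = 0.015). RPL23A, at the exit of the tunnel for the nascent chain, had 45.0 and 44.9 CPM in control and 52.3 and 51.9 CPM in shIRF4 (chr17:28719131-28721144; 0.21 ± 0.07, adjusted p = 0.0256). The far end of RPL35, shared with WDR38, had 7.13 and 6.77 CPM in control and 9.50 and 9.05 CPM in shIRF4 (chr9:124857622-124858216; 0.43 ± 0.14, adjusted p = 0.0343).

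These rises were small, and some calls were lost when a library was left out, while the log2 fold changes ran from 0.19 to 0.34 for RPL9, from 0.24 to 0.32 for RPL7A, from 0.28 to 0.44 for RPL23, from 0.21 to 0.22 for RPL23A and from 0.39 to 0.46 for RPL35. Without control replicate 1 the adjusted p was 0.302 for RPL9, 0.216 for RPL7A, 0.0709 for RPL23, 0.176 for RPL23A and 0.124 for RPL35. Without control replicate 2 it was 0.0692 for RPL7A, 0.108 for RPL23, 0.18 for RPL23A and 0.228 for RPL35, and without shIRF4 replicate 1 it was 0.0629 for RPL23A and 0.185 for RPL35. Without shIRF4 replicate 2 all 5 were called. Calls among these rises were also lost when the control pair was counted as 1 sample. DESeq2 called none of the 6 gene-end rises, and at an unadjusted p under 0.05 it had 1 of the 89 gene-end intervals higher and 0 lower.

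The large subunit interval that fell at a gene end was the far end of RPL18, a 6600-bp stretch shared with FAM83E. It had 79.7 and 76.9 CPM in control and 63.1 and 73.8 CPM in shIRF4 (chr19:48611488-48618087; log2 fold change -0.21 ± 0.07 SE, adjusted p = 0.0358). The lower shIRF4 library carried most of that difference: without shIRF4 replicate 1 the log2 fold change was -0.07 (adjusted p = 0.52), and without control replicate 1 or 2 the adjusted p was 0.238 or 0.0927. It was 0.0964 with scaling by library totals and 0.517 with DESeq2. The start of the same gene, adjacent on the chromosome, had a log2 fold change of 0.04.

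Just outside the threshold were the starts of RPL35 and RPL10A. The RPL35 start had 42.3 and 43.1 CPM in control and 46.6 and 50.8 CPM in shIRF4 (log2 fold change 0.18, adjusted p = 0.0747). The RPL10A start had 39.0 and 37.0 CPM in control and 41.4 and 46.1 CPM in shIRF4 (0.19, adjusted p = 0.0768). In both the groups did not overlap. Groups were also separate with shIRF4 above at the starts of RPL12, RPL17, RPL4, RPL36A, RPL3, RPL38, RPL32 and RPL11, at the far ends of RPL27A and RPL41, at the upstream boundary of RPL6, and at the RPL30 and RPL8 intervals, with log2 fold changes from 0.02 to 0.23 that did not pass the test. They were separate with shIRF4 below at the starts of RPL31, RPL14, RPL34 and RPL28, with values from -0.14 to -0.08, and the other 27 large subunit intervals overlapped.

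Among the gene-end intervals of the small subunit, 1 of 33 rose and 1 fell, with a median log2 fold change of 0.10. The start of RPS19, a protein needed to mature the small subunit RNA and the gene most often mutated in Diamond-Blackfan anaemia, had 74.5 and 70.4 CPM in control and 84.6 and 83.7 CPM in shIRF4. Both shIRF4 libraries were above both control libraries (chr19:41859290-41861273; 0.22 ± 0.06 SE, 95% interval 0.09 to 0.34, adjusted p = 0.0117). The far end of RPS23, a protein of the decoding centre, had 11.2 and 12.5 CPM in control and 8.52 and 9.27 CPM in shIRF4 (chr5:82272650-82273755; -0.43 ± 0.13, adjusted p = 0.0195), while the RPS23 start had 21.4 and 19.9 CPM against 20.6 and 21.4 CPM (0.02). Without control replicate 2 the adjusted p was 0.228 for RPS19 and 0.246 for RPS23, and without shIRF4 replicate 1 it was 0.195 for RPS23. With DESeq2 it was 0.329 for RPS19 and 0.386 for RPS23, and with loess scaling 0.0525 for RPS23. The other 5 RPS19 intervals, 4 in the body and 1 at the far end, had log2 fold changes from -0.15 to 0.18 and were not called.

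The start of RPS27A, which makes a ribosomal protein fused to ubiquitin, lay just outside the threshold with 24.8 and 21.5 CPM in control and 26.7 and 27.4 CPM in shIRF4 (log2 fold change 0.22, adjusted p = 0.0829). Small subunit groups were separate with shIRF4 above in 17 of the 33 intervals and below in 3, the RPS23 far end and the RPS7 start among them. Over both subunits and the stalk the groups were separate with shIRF4 above in 38 of 89 (42.7%) and below in 9 (10.1%), where the same was found in 32.5% and 19.5% of the gene-end intervals of all genes.

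The 3 stalk genes did not pass the test in either direction. RPLP0 had 42.7 and 40.3 CPM in control and 44.3 and 41.6 CPM in shIRF4 (log2 fold change 0.06, 95% interval -0.10 to 0.21). RPLP1 had 39.9 and 39.1 CPM in control and 39.0 and 38.9 CPM in shIRF4 (-0.02, 95% interval -0.17 to 0.13). RPLP2, which shares its start interval with PIDD1, had 45.0 and 50.1 CPM in control and 44.5 and 48.4 CPM in shIRF4 (-0.04, 95% interval -0.20 to 0.11). The levels of the 3 per length lay close together, at 26.1, 24.4 and 26.7 CPM per kb. For these 3 intervals the number at an unadjusted p under 0.05 was 0 with edgeR and 0 with DESeq2.

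RPL5, RPL11, RPS14 and RPS26, chosen beside RPS19 as genes of inherited or acquired anaemia, were not called. RPL5 and RPL11, which with the 5S RNA bind MDM2 when ribosome assembly fails, had log2 fold changes of 0.11 and 0.23. RPS14, the gene lost with the long arm of chromosome 5 in myelodysplasia, had 26.3 and 26.8 CPM in control and 28.6 and 28.4 CPM in shIRF4 (0.10, 95% interval -0.07 to 0.27). RPS26 had a log2 fold change of 0.05 with overlapping groups.

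RPL22, RPL10 and RPS15, chosen as genes mutated in lymphoid cancers, were not called. RPL22 had 27.9 and 29.5 CPM in control and 28.6 and 29.8 CPM in shIRF4 (log2 fold change 0.02, 95% interval -0.15 to 0.19). RPL10 had 30.5 and 29.5 CPM in control and 29.9 and 31.0 CPM in shIRF4 (0.02, 95% interval -0.15 to 0.18). The interval over RPS15, recurrently mutated in chronic lymphocytic leukaemia, had 103 and 101 CPM in control and 99.6 and 99.4 CPM in shIRF4 (-0.03, 95% interval -0.15 to 0.08). For RPL22 and RPL10 the groups overlapped, and for RPS15 both shIRF4 libraries were slightly below.

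RPSA, the small subunit protein also known as the laminin receptor, had 44.0 and 42.9 CPM at its start in control and 48.4 and 47.9 CPM in shIRF4 (log2 fold change 0.15, adjusted p = 0.131). Its 185-bp body interval held 1.93 and 2.16 CPM in control and 2.61 and 3.38 CPM in shIRF4 (0.49, adjusted p = 0.178). The paralog RPS27L, a target of p53, had 39.0 and 36.7 CPM in control and 42.3 and 41.0 CPM in shIRF4 (0.14, adjusted p = 0.18). In all 3 intervals shIRF4 lay above control without passing the test.

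**Figure D3:**
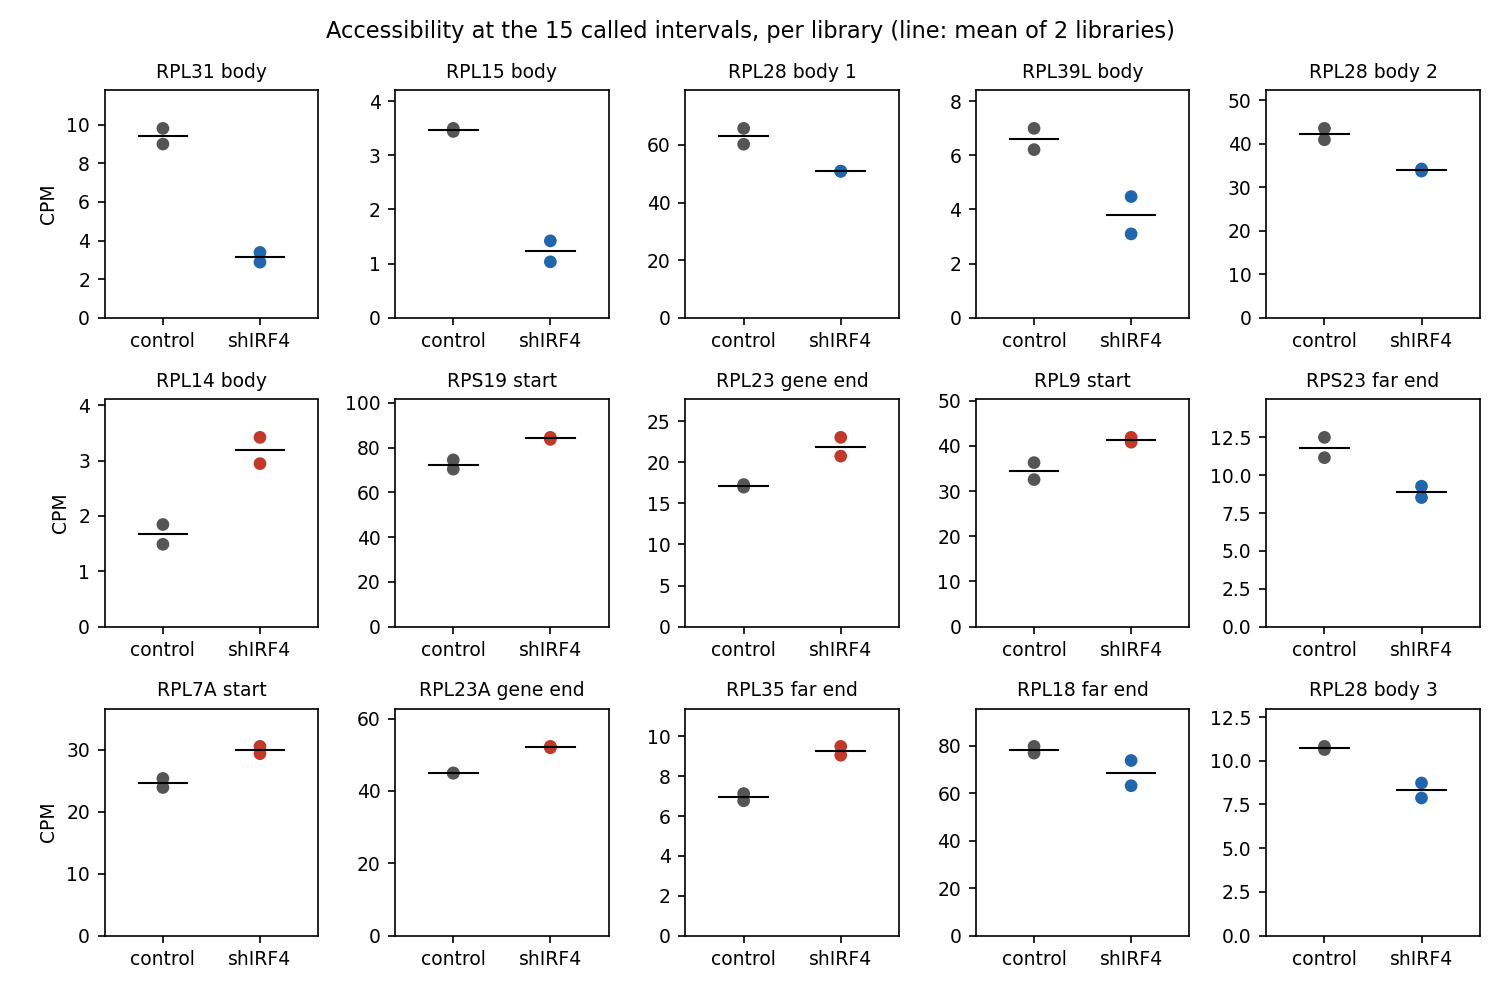
CPM (vertical axes, from 0) in the 2 control and 2 shIRF4 libraries at the 15 called intervals, 1 panel each, ordered by p; points are libraries and lines means of 2. The RPL31 and RPL15 body intervals fall from 9.82 and 9.002 to 2.88 and 3.38 CPM and from 3.44 and 3.497 to 1.03 and 1.42 CPM, while the gene-end intervals differ by less than 1.5-fold.

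The larger differences lay inside gene bodies, away from the starts. Of the 25 body intervals 6 (24.0%) fell and 1 (4%) rose, where 17.6% of the body intervals of all protein-coding genes fell and 7.77% rose. All 7 were in genes of the large subunit, and 3 of the falls were on chromosome 19, all in RPL28. The 7 were 63.6% of the 11 large subunit body intervals, where 25.3% of all body intervals were called. Those 11 lie in 8 genes, with several in RPL28, so they are not separate members and the share describes few genes. The difference between subunits was not tested. None of the 14 body intervals of small subunit genes was called, and at an unadjusted p under 0.05 there were 0 with edgeR and 0 with DESeq2. The RPL31 body interval, about 10 kb downstream of the start and also inside TBC1D8, had 9.82 and 9.002 CPM in control and 2.88 and 3.38 CPM in shIRF4, a 3.07-fold fall (chr2:101011929-101012635; log2 fold change -1.62 ± 0.18 SE, adjusted p = 6.32e-07). The RPL15 body interval, also inside NKIRAS1, had 3.44 and 3.497 CPM in control and 1.03 and 1.42 CPM in shIRF4, a 2.97-fold fall (chr3:23919744-23919958; -1.57 ± 0.27, adjusted p = 0.000141). These 2 were called in every setting tried, DESeq2 and each omission of a library included.

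The starts of both genes differed little. The RPL31 start had 19.97 and 23.1 CPM in control and 19.3 and 19.97 CPM in shIRF4 (log2 fold change -0.14, 95% interval -0.35 to 0.06). The RPL15 start had 49.5 and 50.2 CPM in control and 52.0 and 48.3 CPM in shIRF4 (0.02, 95% interval -0.13 to 0.16). Neither start passed the test, and the difference between body and start within a gene was not tested.

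RPL39L, a paralog that replaces RPL39 in male germ cells, had a body interval with 6.21 and 6.99 CPM in control and 3.09 and 4.47 CPM in shIRF4, a 1.85-fold fall (chr3:187125338-187125873; log2 fold change -0.89 ± 0.20 SE, adjusted p = 0.00196). Its gene-end interval had 35.1 and 39.1 CPM in control and 34.4 and 37.2 CPM in shIRF4 (-0.06), with overlapping groups. The RPL14 body interval of 202 bp rose from 1.85 and 1.49 CPM in control to 3.42 and 2.95 CPM in shIRF4 (chr3:40459688-40459889; 0.97 ± 0.25, adjusted p = 0.00722), whereas the RPL14 start had a log2 fold change of -0.11. The call was lost for RPL39L without shIRF4 replicate 1 (-0.56, adjusted p = 0.129), and for RPL14 without control replicate 2 (adjusted p = 0.112) or shIRF4 replicate 1 (adjusted p = 0.119). DESeq2 called neither (adjusted p = 0.109 and 0.25).

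In RPL28, a large subunit gene on chromosome 19, 3 of the 4 body intervals fell. The longest, 5402 bp that also reach UBE2S, had 65.8 and 60.3 CPM in control and 50.9 and 50.8 CPM in shIRF4 (chr19:55398311-55403712; log2 fold change -0.31 ± 0.07 SE, adjusted p = 0.00188). The interval nearest the start had 43.5 and 40.9 CPM in control and 34.2 and 33.7 CPM in shIRF4 (chr19:55391831-55394902; -0.31 ± 0.08, adjusted p = 0.00394). The 1350-bp interval between them had 10.8 and 10.6 CPM in control and 7.87 and 8.73 CPM in shIRF4 (chr19:55396617-55397966; -0.39 ± 0.13, adjusted p = 0.0387). In all 3 both shIRF4 libraries lay below both control libraries, and the remaining body interval had a log2 fold change of -0.20 with overlapping groups. Without control replicate 1 the adjusted p was 0.0886, 0.0933 and 0.192 for the 3 in this order, and the third was also lost without control replicate 2 (0.162) or shIRF4 replicate 1 (0.309). DESeq2 called none of the 3 (adjusted p = 0.158, 0.219 and 0.494), and the third was lost with scaling by library totals (0.0706) or loess (0.0966).

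**Figure D4:**
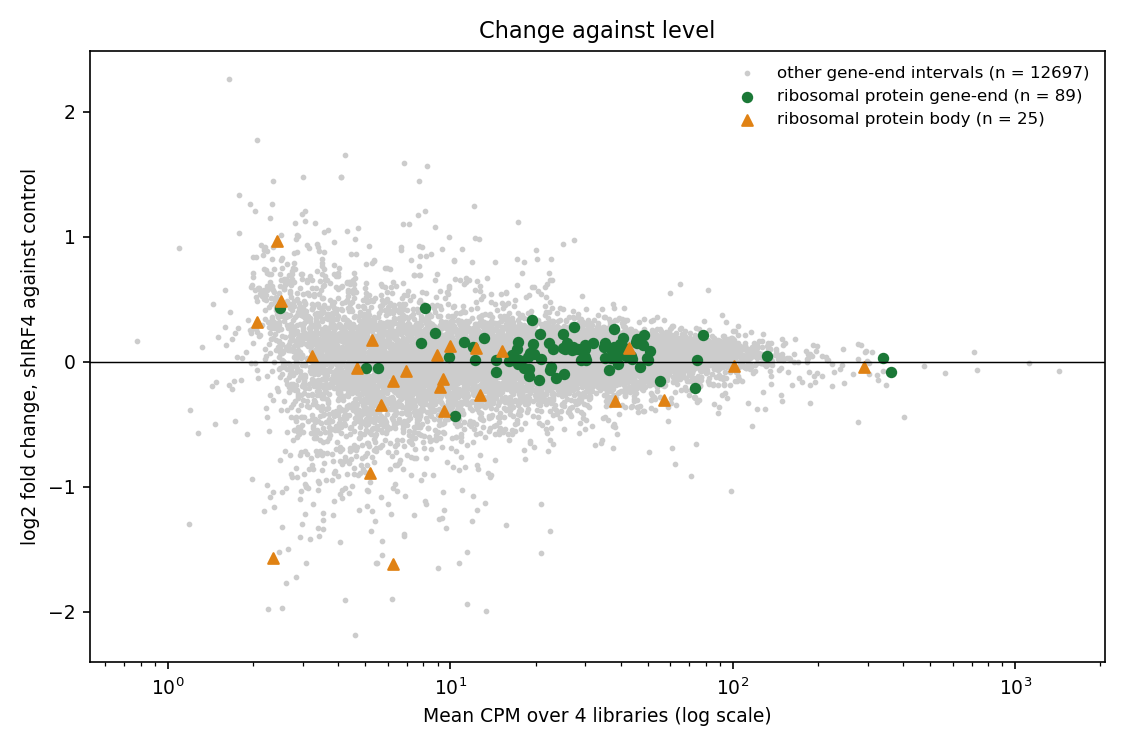
Log2 fold change (vertical axis, shIRF4 against control) against mean CPM over 4 libraries (horizontal axis, log scale) for 12697 gene-end intervals of other genes (grey), the 89 ribosomal protein gene-end intervals (green circles) and their 25 body intervals (orange triangles). The gene-end intervals have a median of 27.3 CPM and stay between -0.43 and 0.43, and the largest changes, -1.62 in RPL31 and -1.57 in RPL15, belong to body intervals at low levels.

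With 1 value per gene, from counts summed over all of its intervals, 6 of 78 genes (7.69%) were called, 4 higher and 2 lower, where 16.3% of 15485 protein-coding genes were called, 5.24% higher and 11.0% lower. The higher genes were RPL23 (log2 fold change 0.31), RPL9 (0.24), RPL7A (0.22) and RPL35 (0.19). RPL31 was lower (-0.48, adjusted p = 0.000464), and its sum holds its start and the body interval described above. The median was 0.04 over the 78 genes and 0.01 over all genes. DESeq2 called 1 of the 78, lower.

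Chromosome 19 carries 12 of the 81 genes and 21 of the 114 intervals, and it is where many intervals of all genes fell. Of the 1078 gene-end intervals on that chromosome 175 (16.2%) were lower and 51 (4.73%) higher, with a median log2 fold change of -0.02. Of the 10 ribosomal protein gene-end intervals there 1 rose (RPS19) and 1 fell (RPL18 far end), with a median of 0.04. The 79 elsewhere had a median of 0.08, with 5 higher and 1 lower.

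To give that surrounding level, each ribosomal protein interval was set beside the median log2 fold change of tested intervals with a midpoint within 500 kb. All intervals of ribosomal protein genes were left out of that median. For the gene-end intervals the median of these surrounding values was -0.11 on chromosome 19 and 0.03 elsewhere. For RPL28 the surrounding median was -0.30, close to the values of its called body intervals (-0.31, -0.31 and -0.39). For RPL18 it was -0.19, near the -0.21 of its far end. For RPS19 it was 0.08, below the 0.22 of its start. Around RPL31, RPL15 and RPL39L the surrounding medians were -0.01, -0.04 and 0.04, far from the -1.62, -1.57 and -0.89 of their body intervals. Of the 89 gene-end intervals 62 lay above their surrounding median, 8 of 10 on chromosome 19 and 54 of 79 elsewhere. That is 69.7% of the 89, where 51.1% of 12690 gene-end intervals of other genes lay above theirs, and the difference was not tested. The part of the surroundings in these values was not tested.

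**Figure D5:**
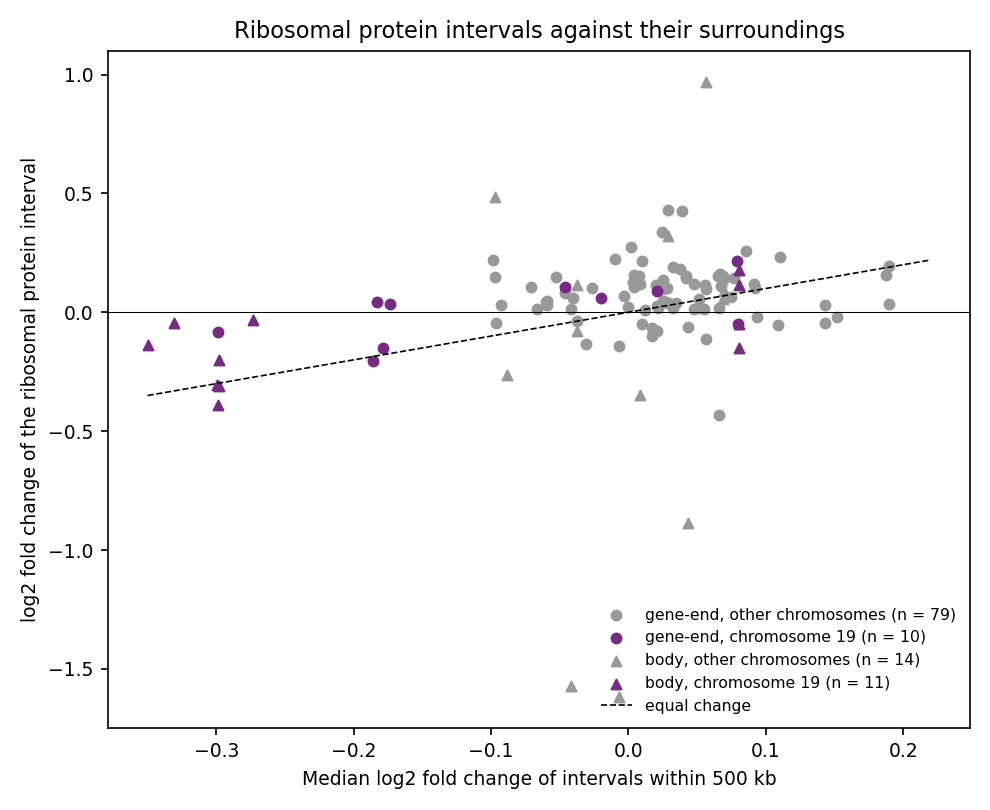
Log2 fold change of each ribosomal protein interval (vertical axis) against the median log2 fold change of tested intervals within 500 kb (horizontal axis). That median leaves out the intervals of ribosomal protein genes. Gene-end intervals are circles and body intervals triangles, with chromosome 19 in purple. The dashed line marks equal values. The RPL28 body intervals lie near the line at a surrounding median of -0.30, and the RPL31 and RPL15 body intervals lie far below it.

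Other genes of the translation pathway were read from the same fit at their gene-end intervals. Translation factors, which bring messenger RNA and transfer RNA to the ribosome, had 5 higher (11.9%) and 1 lower (2.38%) of 42, beside 4.87% and 5.35% of all gene-end intervals, with a median log2 fold change of 0.06. EIF2S2 (0.25), EIF3K (0.37), EIF3G (0.20), TPT1 (0.18) and EIF3J (0.19) rose, and the far end of EIF4A1, the helicase that unwinds messenger RNA, fell (-0.42). DESeq2 called none of these 42, with 1 higher and 1 lower at an unadjusted p under 0.05. Cytosolic ribosomal protein genes outside the symbol rule had 1 higher of 6, RPL22L1 (0.26), a paralog of RPL22, with a median of 0.07. Ribosome biogenesis factors had 2 higher of 33, both at RRP12 (1.17 and 0.84), with a median of 0.05.

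Genes for the mitochondrial ribosome, a separate particle, had 0 higher and 3 lower of 89, MRPS9 (-1.55), MRPL40 (-0.72) and MRPS34 (-0.27), with a median of 0.03. At an unadjusted p under 0.05, 2 of these 89 were higher with edgeR and 0 with DESeq2. RNA polymerase I factors, which make the ribosomal RNA, had none called of 14, with a median of 0.03, and 1 was higher at an unadjusted p under 0.05 with edgeR and 0 with DESeq2. The median of 0.06 at the cytosolic ribosomal protein gene ends thus stood beside medians from 0.03 to 0.07 in these lists, and no difference between lists was tested.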

How the data were processed

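ATAC-seq read counts from 4 TMD8 libraries were analysed, 2 of each group. The authors made the deposited counts with featureCounts 2.0.0, per the file headers. Its options took only the 5′ end of a read, skipped marked duplicates, treated the data as paired-end and allowed a multi-mapping read to be split, yet every count was a whole number. Coordinates are on hg38, as named in the submitters' processing notes. For the aligner, the peak caller and a transposase shift of read ends, the entry is: not given in the sources used here. Ignoring duplicates lowers the count of densely read intervals more in a deeper library. Reads in exons can also match the processed pseudogenes of these genes.

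Counts were tested with edgeR 4.0.16 (R 4.3.3, limma 3.58.1): filterByExpr (73028 intervals tested, 107 removed), TMM factors, the quasi-likelihood F-test (legacy=FALSE, robust=FALSE, two-sided) with group as its single term, over all 4 libraries, and Benjamini-Hochberg adjustment over all intervals, or over all 15485 genes for counts summed per gene, with a threshold of 0.05. "Rose", "fell", "higher" and "lower" refer to calls past that threshold, and fold changes are shIRF4 against control. The standard error (SE) is the size of the log2 fold change divided by the square root of F, and 95% intervals use the degrees of freedom of the fit. Genes were placed with the RefSeq table of hg38 genes, which gives no strand, and starts came from the RefSeq promoter table, which lists 64 of the 81 genes. The pyrimidine run was read at the outermost listed start, which need not be the start TMD8 uses.

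The genes, comparison lists and tests were chosen with earlier results of these data known. Named intervals are all those called, with values per library, the 5 gene-end intervals with the highest and the 5 with the lowest CPM, the 3 just outside the threshold, the stalk genes and RPSA, the paralogs RPL39L and RPS27L, and genes of anaemia or lymphoid cancer. Values of some genes are not reported here. Alternatives were scaling by library totals, DESeq2 1.42.0, no filter, each library left out, a replicate block, gene-end intervals only and chromosome 19 left out. A loess scaling by abundance (span 0.3) and the control pair counted as 1 sample were added after seeing the data. Depth sets the precision: the median SE was 0.08 on the log2 scale at gene-end intervals and 0.16 at body intervals.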

Additional observations from a re-analysis of the deposited data

How the results depend on the processing

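All 45 named intervals kept the direction of any call under each of the 10 alternatives, and only the RPL31 and RPL15 body falls were called under every one. With 7 higher and 8 lower ribosomal protein intervals, 6 genes called from summed counts, a gene-end median log2 fold change of 0.06 and a summed ratio of 1.03 as the reported values, scaling by library totals gave 12 higher, 10 genes (9 higher, 1 lower), a median of 0.112 and a ratio of 1.07, and it moved the median of all intervals from 0.01 to 0.06 and the lower share of all calls from 68.1% to 58%. DESeq2 gave 4570 calls over all intervals (856 higher and 3714 lower, 81.3% lower, where edgeR gave 16639), 0 higher and 2 lower ribosomal protein intervals (at an unadjusted p under 0.05, 2 higher and 5 lower) and 1 gene. Leaving out each library in turn gave from 9012 to 19960 calls over all intervals, from 1 to 8 higher and from 4 to 10 lower ribosomal protein intervals, from 1 to 9 genes and a median from 0.0559 to 0.0803; the group left with 1 library is then assumed to vary like the other. The fewest higher intervals came without control replicate 2, and 2 without control replicate 1. The loess scaling gave a median of 0.104, and the control pair as 1 sample 2 higher intervals and 1 gene. Gene-end intervals alone held 2 lower calls; without chromosome 19 there were 4 lower calls and a gene-end median of 0.083. The replicate numbers share only a number: deviations of same-numbered libraries had a correlation of -0.03 over all intervals. With the replicate block the counts were 7 higher and 8 lower, and no named call changed. Without the filter no named call changed. The cause of these shifts was not tested. Body intervals under about 3 CPM, such as those of RPL14 and RPSA, had standard errors near 0.25, and only large changes could be called there.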
